A study of Mus musculus with 8 samples.

Results

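The Runx and Ikaros transcription factors were followed in mouse LSK cells (lineage-negative, Sca1-positive, Kit-positive bone marrow cells) as 7 genes taken by name, Runx1, Runx2, Runx3, Cbfb, Ikzf1, Ikzf2 and Ikzf3, among 45706 genes listed and 16258 tested. All 7 passed the filter on low counts. The cells were sorted from C57BL/6 mice labelled WT (wild type) or labelled with a conditional KO (knockout) of Hira, the gene of a chaperone for the H3.3 histone variant. The Cre driver, the age of the mice and how many mice gave each library are not given in the sources used here. RNA sequencing and ATAC-seq, in which a transposase cuts into accessible DNA, had 2 libraries per labelled group each. The series examined how gene expression and accessible chromatin in LSK cells were altered without Hira.

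RUNX proteins bind DNA through their Runt domain, and core-binding factor beta, the product of Cbfb, joins them as a partner that does not touch DNA itself and raises their affinity. Runx1 is needed for the emergence of blood stem cells in the embryo and for megakaryocyte and lymphocyte development in the adult. Runx2 is best known as the master factor of bone formation, and Runx3 for its part in CD8 T cells. The Ikaros family are zinc finger proteins that pair with each other and recruit the NuRD chromatin remodelling complex. Ikaros (Ikzf1) primes stem and progenitor cells for the lymphoid lineage, Helios (Ikzf2) is expressed in stem cells and regulatory T cells, and Aiolos (Ikzf3) rises in maturing lymphocytes.

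The RNA libraries held 16595400 to 19846300 expected counts, of which mitochondrially encoded genes took 40.8% to 53.1%. Hira itself went against the titles, with 16.5 and 17.2 CPM (counts relative to library size, after edgeR's TMM scaling) in the libraries labelled WT and 24.4 and 23.3 CPM in those labelled Hira KO. The log2 fold change was 0.50 (SE 0.19, edgeR adjusted p = 0.180). The deposited files are named with the opposite genotype. Counts were per gene and would include reads from exons that a deletion spares. The cause of the higher Hira level in the libraries labelled Hira KO was not tested. Because Hira and the file names go against the titles, the groups carry the word labelled throughout. Each direction below rests on the titles. Labelled WT replicate 2 had 906 counts for Ddx3y, on the Y chromosome, and 1470 for Xist, against 1 or 2 and 169234 to 232764 in the other 3 libraries. Labelled Hira KO replicate 2 held 6.01 counts of the gene AY036118, against 86174 to 108841 in the others. P-values measure the spread between these libraries, which may be technical in part.

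The distal promoter sequence of each Runx gene is printed here, in windows from 250 bases before to 50 after an annotated start (RefSeq, GRCm38.p6). A link between these sequences and open chromatin was not tested. Windows were found for 5 of the 7 genes: 2 each for Runx1, Runx3 and Ikzf1, and 1 each for Runx2 and Cbfb. Capitals mark each match to the RUNX core TGTGGT or its complement ACCACA, searched on both strands. The Runx1 proximal window follows for contrast. Sequences run 5′ to 3′ on the strand of the gene.
Runx1 distal, chr16:92826025-92826324, minus strand: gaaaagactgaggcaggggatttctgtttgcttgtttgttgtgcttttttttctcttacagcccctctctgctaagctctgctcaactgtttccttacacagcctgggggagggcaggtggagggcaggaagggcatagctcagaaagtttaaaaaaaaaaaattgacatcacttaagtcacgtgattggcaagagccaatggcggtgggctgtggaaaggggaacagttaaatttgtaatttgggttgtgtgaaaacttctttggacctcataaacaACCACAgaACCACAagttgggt
Runx2 distal, chr17:44814578-44814877, minus strand: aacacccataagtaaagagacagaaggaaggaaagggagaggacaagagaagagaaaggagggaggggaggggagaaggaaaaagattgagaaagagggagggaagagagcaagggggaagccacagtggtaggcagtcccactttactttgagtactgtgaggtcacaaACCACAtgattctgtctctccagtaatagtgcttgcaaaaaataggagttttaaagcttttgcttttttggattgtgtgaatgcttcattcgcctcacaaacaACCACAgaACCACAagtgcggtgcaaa
Runx3 distal, chr4:135120395-135120694, plus strand: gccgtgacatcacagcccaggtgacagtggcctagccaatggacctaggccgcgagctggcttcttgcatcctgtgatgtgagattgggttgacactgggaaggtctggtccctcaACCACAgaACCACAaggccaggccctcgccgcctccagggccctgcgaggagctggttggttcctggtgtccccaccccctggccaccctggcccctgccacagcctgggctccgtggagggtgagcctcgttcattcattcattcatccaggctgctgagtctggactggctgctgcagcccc
Runx1 proximal, chr16:92697280-92697579, minus strand: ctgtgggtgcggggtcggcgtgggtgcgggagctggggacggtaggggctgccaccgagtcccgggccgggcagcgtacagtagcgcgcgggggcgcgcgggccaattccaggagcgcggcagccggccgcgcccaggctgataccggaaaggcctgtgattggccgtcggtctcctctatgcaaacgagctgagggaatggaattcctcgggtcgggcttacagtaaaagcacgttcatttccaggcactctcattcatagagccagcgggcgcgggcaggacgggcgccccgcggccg
The 3 distal windows share a run of 18 bases, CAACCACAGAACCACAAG, which holds 2 separate RUNX cores in the form ACCACA, and Runx2 had a further core at -80. The shared run lies upstream of the start in Runx3, beginning at -136. In Runx1 and Runx2 it lies within the first transcribed bases, beginning at 27 and 22, counted from 1 at the start site. The run was picked as the longest stretch common to these 3 windows, so its presence in them was fixed by that choice. Among 32817 promoter windows it occurred in 4 (0.0122%), which are these 3 and the window of Gm16225. Gm16225 is a long noncoding RNA gene whose window overlaps the Runx3 distal window on the other strand. The share is a description and no test of enrichment. The RUNX core alone occurred at least once in 16.8% of all windows and at least 2 times in 1.81%. The Runx1 and Runx3 proximal windows and the windows of Cbfb and Ikzf1 held no match to it. An Ikaros core, TGGGAA or TTCCCA, was found in 1 of the 8 windows, Runx3 distal at -154, against 25.6% of all windows. The distal windows of Runx1 and Runx2 were low in CpG (2 CpG each, 45.0% and 45.3% G or C), and those of the proximal promoters of Runx1 and Runx3 were high (35 and 45 CpG). A match is a description of letters, not a bound site.

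Ikzf1 had the highest transcript level of the 7 genes in every library, in TPM (transcript abundance corrected for gene length and library size). It stood at 203 and 149 TPM in labelled WT replicates 1 and 2 and at 171 and 128 TPM in labelled Hira KO replicates 1 and 2. The mean in labelled WT, 176 ± 38.3 TPM (SD, n = 2), lay at the 98.1 percentile of tested genes. Runx1 (62.9 ± 17.4 TPM) and Runx2 (54.8 ± 12.6 TPM) came next, with means within the spread between libraries. Within labelled WT replicates 1 and 2, Runx2 stood at 0.85 and 0.91 of Runx1. Runx3 (38.7 ± 10.3 TPM) and Cbfb (32.7 ± 7.99 TPM) followed, again with means within the spread between libraries, then Ikzf2 (14.9 ± 5.44 TPM). Runx3 was the higher of these in both labelled WT libraries (46.0 and 31.4 against 38.3 and 27.0 TPM for Cbfb). Ikzf3 was listed at 1.5 ± 1.57 TPM, the 24.2 percentile. In labelled Hira KO the means were 149 ± 30.2 TPM for Ikzf1, 93.3 ± 17.0 for Runx2, 82.3 ± 29.2 for Runx1, 30.5 ± 13.4 for Cbfb, 29.7 ± 4.04 for Runx3, 25.9 ± 6.68 for Ikzf2 and 2.17 ± 0.488 for Ikzf3. Runx2 thus stood above Runx1 in both labelled Hira KO libraries and below it in both labelled WT libraries. In labelled Hira KO replicate 1 the 2 genes all but tied, at 105 and 103 TPM.

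Runx2 and Ikzf2 rose in labelled Hira KO, Runx1 was higher without passing the test, and Runx3, Cbfb, Ikzf1 and Ikzf3 did not pass it in either direction. By edgeR's quasi-likelihood test, with Benjamini-Hochberg adjustment over all genes and a threshold of 0.05, 2 of the 7 were called higher, against 1.32% of all tested genes, and 0 lower, against 0.480% (either direction, 1.80%). At an unadjusted p below 0.05, 3 of the 7 were higher, against 12.2%, and 0 lower, against 10.6%. DESeq2 called the same numbers, 2 higher and 0 lower, and limma on log2 TPM called 0 of the 7 in either direction. Both labelled Hira KO libraries lay above both labelled WT libraries in CPM in 3 of 7, against 28.3% of all genes. Both lay below in 2 of 7, against 27.8%, so that a gap between the groups was common among all genes. The median log2 fold change of the 7 was 0.45, and that of all tested genes 0.01.

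Runx2 stood at 154 and 147 CPM in labelled WT replicates 1 and 2, against 254 and 268 CPM in labelled Hira KO replicates 1 and 2. Both labelled Hira KO libraries lay above both labelled WT libraries, and the libraries of a group were close. The means were 151 ± 5.04 and 261 ± 9.84 CPM (SD, n = 2 each), 1.73-fold higher in labelled Hira KO (log2 fold change 0.79, SE 0.14, 95% interval 0.47 to 1.11, edgeR adjusted p = 0.0427).
Ikzf2, which encodes Helios, stood at 57.2 and 49.8 CPM in labelled WT, against 112 and 100.6 CPM in labelled Hira KO, again without overlap. It was 1.98-fold higher (log2 fold change 0.99, SE 0.16, 95% interval 0.62 to 1.36, edgeR adjusted p = 0.0377).
For both genes the size hardly moved across 12 alternatives, from 0.75 to 0.82 for Runx2 and from 0.77 to 1.08 for Ikzf2 on the log2 scale, but the call was made in 7 of 12. The edgeR adjusted p was 0.454 for Runx2 and 0.395 for Ikzf2 without labelled WT replicate 1, and 0.426 and 0.378 without replicate 2, when 3 and 1 genes in the whole table were called higher. Over all alternatives, DESeq2 and limma included, the adjusted p ranged from 0.000264 to 0.454 for Runx2 and from 1.6e-05 to 0.422 for Ikzf2, the upper end of the latter by limma on log2(TPM + 1).

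Runx1 stood at 206 and 177 CPM in labelled WT libraries and 279 and 246 CPM in labelled Hira KO. The groups did not overlap, but the difference did not pass (log2 fold change 0.45, SE 0.15, 95% interval 0.10 to 0.81, edgeR adjusted p = 0.139). Without labelled Hira KO replicate 2 it was 0.54 and passed (edgeR adjusted p = 0.0316; range 0.0316 to 0.813 over the alternatives).
Runx3 lay lower in labelled Hira KO, at 128 and 114 CPM in labelled WT, against 93.8 and 100.5 CPM in labelled Hira KO. The groups did not overlap, and the interval of the log2 fold change of -0.32 (SE 0.15) ran from -0.66 to 0.02 (edgeR adjusted p = 0.244).
Cbfb, the shared partner, stood at 68.3 and 63.2 CPM in labelled WT, against 74.8 and 52.8 CPM in labelled Hira KO, where the libraries fell on either side of labelled WT. Its log2 fold change was -0.04 (95% interval -0.50 to 0.42, edgeR adjusted p = 0.920). The sign turned to 0.0017 without labelled WT replicate 1 and to 0.18 without labelled Hira KO replicate 2.
Ikzf1 stood at 438 and 431 CPM in labelled WT, against 422 and 395 CPM in labelled Hira KO. The log2 fold change was -0.09 (SE 0.14, edgeR adjusted p = 0.756), and its 95% interval of -0.42 to 0.24 leaves out a change as large as that of Ikzf2.
Ikzf3 rested on 123 and 25 counts in labelled WT, against 94 and 147 in labelled Hira KO, or 6.51, 1.37, 4.87 and 8.84 CPM in that order. With labelled WT replicate 2 far below the others, its log2 fold change of 0.79 had an interval from -1.0 to 2.59 (edgeR adjusted p = 0.567). It was 0.06 without labelled WT replicate 2 and 2.30 without replicate 1, so its size rested on which labelled WT library was kept.

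**Figure D1:**
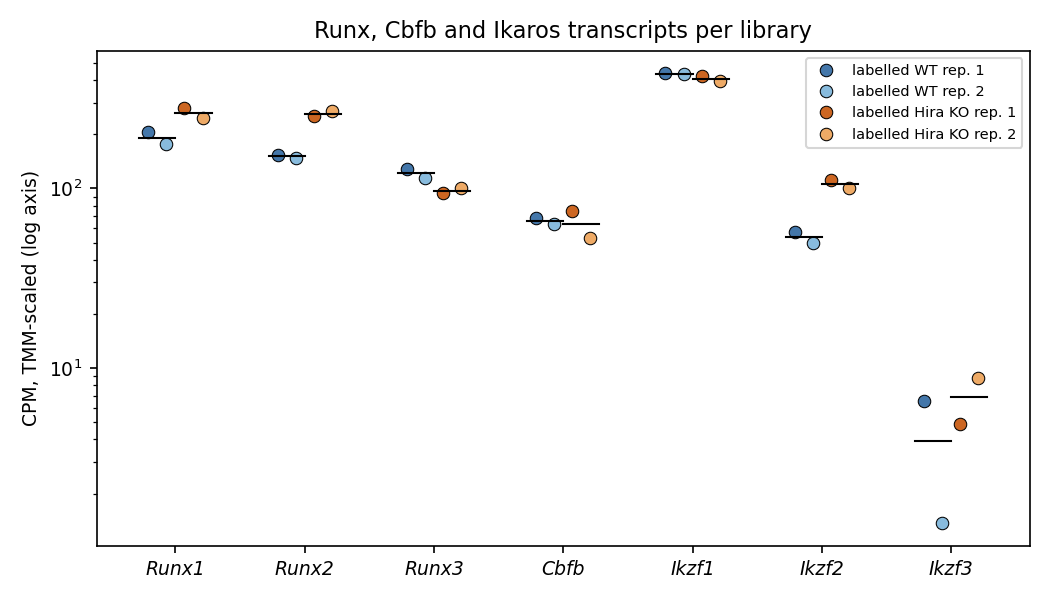
Level of each gene in each RNA library in CPM scaled by TMM factors, on a log axis, with short lines at the group means (2 libraries per labelled group). Runx2 and Ikzf2 show both labelled Hira KO libraries above both labelled WT libraries, and for Ikzf3 labelled WT replicate 2 sits apart at 1.37 CPM.

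**Figure D2:**
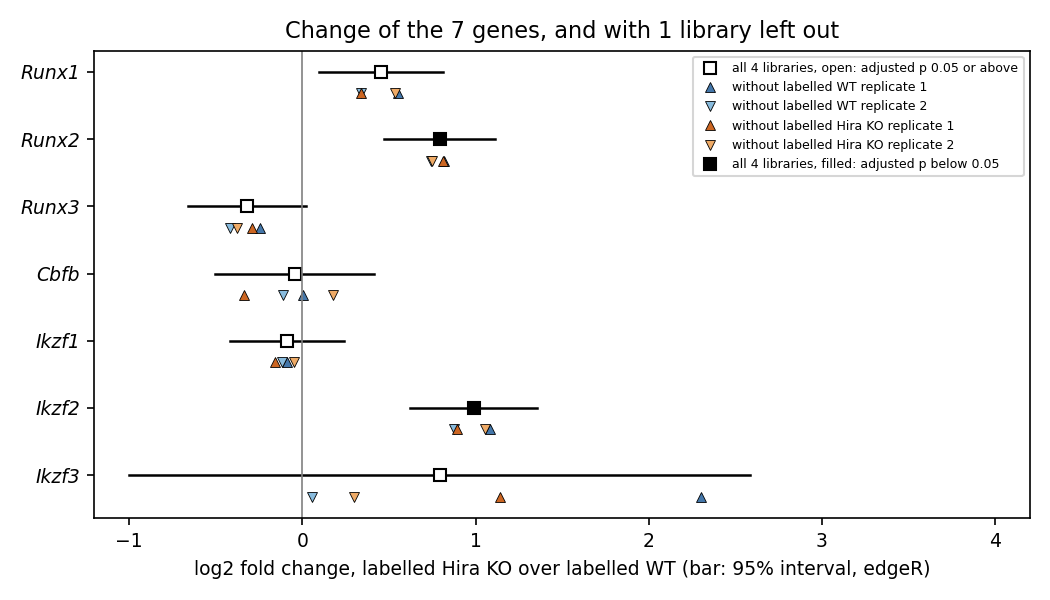
Log2 fold change of each gene, labelled Hira KO over labelled WT, from all 4 libraries (squares, with the 95% interval of edgeR's test; filled where the adjusted p was below 0.05) and with 1 library left out (triangles). Runx2 and Ikzf2 stay between 0.75 and 1.08 with any library left out, while Cbfb falls on both sides of 0 and Ikzf3 moves from 0.06 to 2.30.

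The summed TPM of Runx1, Runx2 and Runx3 overlapped between the groups, at 185 and 128 in labelled WT against 241 and 170 in labelled Hira KO. The TPM scale includes mitochondrial genes, at 40.8% and 51.7% of counts in labelled WT against 42.9% and 53.1% in labelled Hira KO. With those genes left out, the sum did not overlap and was higher in labelled Hira KO. Runx2 then stood at 116 and 102 TPM against 206 and 181, and Runx1 at 138 and 112 against 201 and 137. Runx3 stood at 84.1 and 69.8 against 63.6 and 59.7. Runx2 made up 34.4% and 35.9% of the summed Runx TPM in labelled WT, against 43.7% and 47.9% in labelled Hira KO. The share of Runx3 was 24.9% and 24.6% in labelled WT, against 13.5% and 15.8% in labelled Hira KO, with no overlap. The share of Runx1 overlapped, at 40.7% and 39.5% against 42.7% and 36.3%. Shares within a library do not depend on how libraries are scaled, and the ratio of Runx2 to Runx3 TPM was 1.38 and 1.46 in labelled WT against 3.23 and 3.03 in labelled Hira KO. The exact permutation test over libraries (two-sided) gave p = 0.333 for the shares of Runx2 and Runx3 (n = 2 each), the smallest this test can give with 2 against 2, so it could not pass the threshold whatever the values. Cbfb TPM came to 0.207 and 0.211 of that sum in labelled WT, against 0.166 and 0.124 in labelled Hira KO.
Among the Ikaros genes, Ikzf1 made up 90.5% and 92.8% of the summed Ikzf1, Ikzf2 and Ikzf3 TPM in labelled WT, against 84.1% and 84.4% in labelled Hira KO. Ikzf2 took 8.37% and 6.92% in labelled WT, against 15.05% and 13.9% in labelled Hira KO, without overlap (exact permutation p = 0.333, n = 2 each). Ikzf3 took 1.65% or less in every library.

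**Figure D3:**
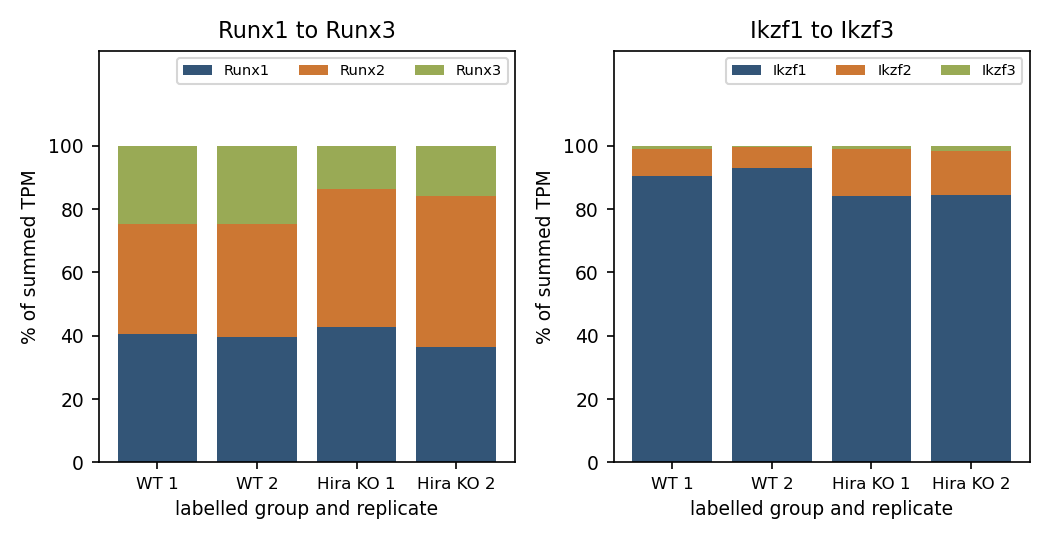
Share of each gene in the summed TPM of its family, in percent, for each RNA library (left, Runx1 to Runx3; right, Ikzf1 to Ikzf3). Runx2 takes 43.7% and 47.9% in the labelled Hira KO libraries against 34.4% and 35.9% in labelled WT, and Ikzf1 stays above 84% in every library.

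The deposited gene length averages a gene's transcripts by their estimated abundance, so it moves when the mix of transcripts does. It was longer in both labelled Hira KO libraries in 3 of 7 genes, against 15.5% of tested genes with more than 1 transcript, and shorter in 1 of 7, against 17.7%. Runx2 was the shorter one, with 3389 and 3415 bases in labelled WT, against 3277 and 3324 in labelled Hira KO over 13 transcripts. Ikzf1 had 3046 and 3110 bases in labelled WT, against 3346 and 3120 in labelled Hira KO, the last only just outside the labelled WT values. Ikzf2 had 4206 and 4696 bases against 4851 and 4699, where labelled WT replicate 2 and labelled Hira KO replicate 2 all but coincide. Cbfb had 2555 in both labelled WT libraries against 2584 and 2574. Runx1 ran from 3650 to 3968 bases over 7 transcripts with overlapping groups, as did Runx3 and Ikzf3. The files give no level per transcript, so which Runx1 promoter was used was not read from the RNA.

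Open chromatin around the 7 genes comprised 186 ATAC regions within 10 kb of the gene bodies, of 112479 after peaks that overlapped between the 4 lists were joined. The lists held 79565 and 63422 peaks in labelled WT, against 92839 and 73715 in labelled Hira KO, and no read totals, so depth is unknown and a region missing from a list may be a matter of depth. Of the 186, 70 were called in all 4 libraries (37.6%, against 40.7% of all regions). The labelled WT pair alone called 9 (4.84%, against a background of 2.77%) and the labelled Hira KO pair alone 12 (6.45%, against 5.64%). Runx1 had 51 regions and Ikzf1 48, against a median of 6 over 14048 tested genes with a position. Per 100 kb, Ikzf1 held 44.5 regions (98.6 percentile of those genes), Runx1 20.8 (79.6 percentile) and Runx2 8.26 (34.8 percentile), against a median of 11.6. Runx3 had 14 regions, Cbfb 7 and Ikzf2 28. Ikzf3, the least expressed gene, had 10, of which 9 were in labelled Hira KO replicate 1, the longest list, and 2, 2 and 3 in labelled WT replicates 1 and 2 and labelled Hira KO replicate 2.

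Of the 8 promoter windows, 7 overlapped a region called in all 4 libraries, against 75.6% of the windows of tested genes. The exception was the distal window of Runx2: no list called a peak there, and the nearest region lay 13043 bases away, upstream. No other Runx2 window was available, so whether another start of this gene is open was not examined. At Runx1 the proximal promoter, 128.7 kb downstream of the distal one, lay in a region of 2606 bases with fold enrichments of 79.7 and 74.5 in labelled WT, against 69.0 and 86.5 in labelled Hira KO. These values are those of the authors' peak caller, and a percentile places each within its own list. It ranked at the 95.7 to 97.7 percentiles. The distal Runx1 promoter, with the shared RUNX sequence, lay in a region of 1860 bases with lower values, 20.2 and 21.3 in labelled WT, against 29.8 and 27.8 in labelled Hira KO. Between them, 24.5 kb downstream of the distal start, the region at chr16:92800659-92802559 ranked at the 93.0 to 97.1 percentiles in the 4 lists. The first Runx1 intron is known to hold an enhancer active in blood stem cells, and whether this region is that element was not tested.

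At Runx3 the distal promoter had fold enrichments of 10.8 and 14.1 in labelled WT, against 24.0 and 20.6 in labelled Hira KO, and the proximal one, 31.9 kb downstream, 9.81 and 10.8 against 18.6 and 14.8. The lists differ in length and their depth is unknown, so the values stand side by side without a test. The Cbfb promoter had 27.1 and 14.4 against 44.8 and 25.1. The first Ikzf1 promoter lay in a region of 2933 bases with 39.1 and 39.1 against 42.7 and 31.9, and the second, 4.25 kb downstream, had 10.2 and 6.56 against 11.7 and 7.21. The strongest region at Ikzf1 was not a promoter: chr11:11725036-11729719, 4684 bases wide and inside the gene, reached 112 and 83.7 in labelled WT, against 65.5 and 57.3 in labelled Hira KO (94.8 to 98.0 percentiles), followed by chr11:11734422-11736099. At Runx2 the strongest were 37.3 kb (chr17:44776589-44778013) and 142.1 kb (chr17:44671876-44673251) downstream of the distal start. The former had 79.7 and 38.7 in labelled WT, against 66.7 and 50.8 in labelled Hira KO, with overlap, and the latter 68.9 and 60.7 in labelled WT, against 37.1 and 36.4 in labelled Hira KO. At Ikzf2 they were chr1:69559385-69560400, with 111 and 62.7 against 59.9 and 49.1, and chr1:69544909-69546598, with 91.6 and 62.0 against 38.5 and 49.8. At Cbfb the strongest was chr8:105224558-105225746, with 45.6 and 26.6 against 55 and 47.7, which lay outside the gene body, 6569 bases past its end. At Ikzf3 the 2 regions called in all 4 libraries lay outside the gene body, chr11:98550275-98551851, with 30.6 and 27.2 against 33.1 and 34.3, and chr11:98457318-98458406, with 18.3 and 10.5 against 31.0 and 17.8.

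The 21 regions called in a single labelled pair had fold enrichments from 2.56 to 11.2, the highest at the 66.0 percentile of its list. Runx2 had 5 that the labelled Hira KO pair alone called, at 31.3, 89.4, 124.1, 150.5 and 161.3 kb downstream of the distal start, and 2 only in the labelled WT pair, at 144.4 and 175.0 kb. All 7 lay within the gene. Ikzf1 had 5 only in the labelled WT pair and 1 only in the labelled Hira KO pair. Of the 5, 3 lay at or just past the end of the gene, chr11:11772198-11772619, chr11:11773099-11773487 and chr11:11774265-11775392. Runx3 had 2, both in the labelled Hira KO pair, one of them (chr4:135153416-135154332) next to the region of the proximal promoter. Runx1 had 2 in the labelled Hira KO pair (chr16:92597723-92598020 and chr16:92641073-92641447) and 1 in the labelled WT pair (chr16:92753144-92753519). Cbfb had 1 in the labelled Hira KO pair, chr8:105172041-105172357, and Ikzf2 1 of each, chr1:69606880-69607236 in the labelled Hira KO pair and chr1:69566567-69567029 in the labelled WT pair. Ikzf3 had none.

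**Figure D4:**
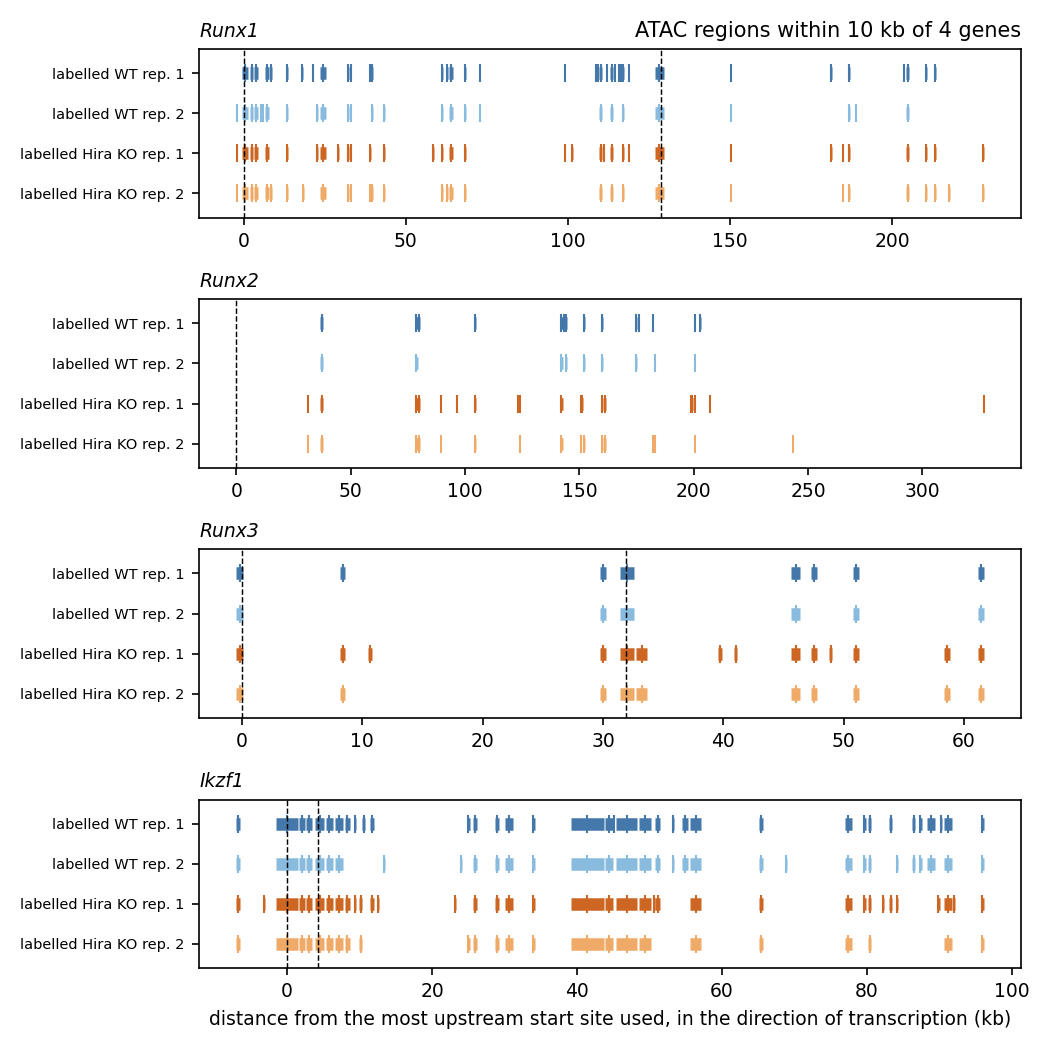
ATAC regions within 10 kb of Runx1, Runx2, Runx3 and Ikzf1 by library, drawn to scale at their distance in kb from the most upstream start site used, with dashed lines at the start sites. Both Runx1 starts (0 and 128.7 kb) are covered in all 4 libraries, and no region lies at the distal start of Runx2.

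The genes around these factors were read from 5 lists, which share members (Hdac1, Sin3a, Spi1, Myb and others) and were chosen with results of these data known. Their counts are to be read against all tested genes, of which edgeR called 1.32% higher and 0.480% lower, 12.2% were higher and 10.6% lower at an unadjusted p below 0.05, and 50.9% lay above 0. Of 19 tested RUNX partners and corepressors, edgeR called 0 in either direction (2 higher and 2 lower at an unadjusted p below 0.05; DESeq2 called 1 higher). Tle2, a Groucho-type corepressor gene, had the lowest p, with 3.23 and 2.19 CPM in labelled WT, against 7.93 and 8.96 CPM in labelled Hira KO (log2 fold change 1.64, edgeR adjusted p = 0.0616). Its relative Tle3 had -0.43 and the histone methyltransferase gene Suv39h1 -0.54, and Runx1t1, which encodes the ETO corepressor, 3.0 at 1.4 CPM or less in every library. The list's median was 0.07, against 0.01 over all tested genes.
Of 22 Ikaros relatives and NuRD or other corepressor genes, edgeR also called 0 (1 higher and 5 lower at an unadjusted p below 0.05; DESeq2 called 1 lower), and 18 of 22 lay below 0 with a median of -0.25. Among the genes of lowest p, the NuRD subunit genes Mta2 (-0.56) and Mbd2 (-0.56) and the ubiquitin ligase adaptor gene Ddb1 (-0.62) lay below 0, and the remodeller gene Chd3 (0.56) above it, all without overlap of the groups. Chd4, the main NuRD remodeller gene, had -0.09. The family members Ikzf4 and Ikzf5 had 0.96 and 0.08 without passing.

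Of 19 haematopoietic factor genes listed as possible partners, 1 rose and none fell. Meis1, a HOX cofactor gene of stem cells, went from 70.0 and 78.8 CPM to 205 and 240 (log2 fold change 1.58, edgeR adjusted p = 0.0167). Lmo2 (0.75) and Erg (0.82), both stem cell regulators, and Ldb1 (-0.55), which encodes the LMO2 partner, missed the threshold with edgeR adjusted p of 0.0518, 0.0591 and 0.0888. At an unadjusted p below 0.05, 3 were higher and 5 lower, DESeq2 called 3 higher and 1 lower in this list, and its median was -0.11.
Of 28 tested genes linked to RUNX factors, 2 rose and none fell (5 higher and 9 lower at an unadjusted p below 0.05; DESeq2 called 2 higher and 5 lower), with a median of -0.33. Cd4, a T cell coreceptor gene that RUNX proteins silence, went from 3.07 and 3.06 CPM to 10.3 and 10.8 (log2 fold change 1.77, edgeR adjusted p = 0.0414). The myosin gene Myh10, which RUNX1 represses in megakaryocytes, had -1.01 and the integrin gene Itgal -0.69, neither past the threshold.
Of 26 genes linked to Ikaros, 1 rose and 1 fell, with a median of -0.19. At an unadjusted p below 0.05, 4 were higher and 8 lower, DESeq2 called 2 higher and 4 lower, and limma called 0 to 2 higher and 0 lower over the 3 TPM scales. Flt3, a cytokine receptor gene of lymphoid-primed progenitors, went from 77.3 and 89.7 CPM to 180 and 267 (1.42, edgeR adjusted p = 0.0347). Igll1, a surrogate light chain gene of B cell precursors, fell from 62.7 and 56.7 CPM to 27.8 and 23.6 (-1.21, edgeR adjusted p = 0.0337). The B lineage factor gene Ebf1 (-0.82) lay lower without passing. Without labelled WT replicate 1 or 2, none of the 5 called genes of these lists passed, with log2 fold changes of 1.76 for Cd4, 1.48 to 1.65 for Meis1, 1.3 to 1.52 for Flt3 and -1.3 to -1.15 for Igll1.

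**Figure D5:**
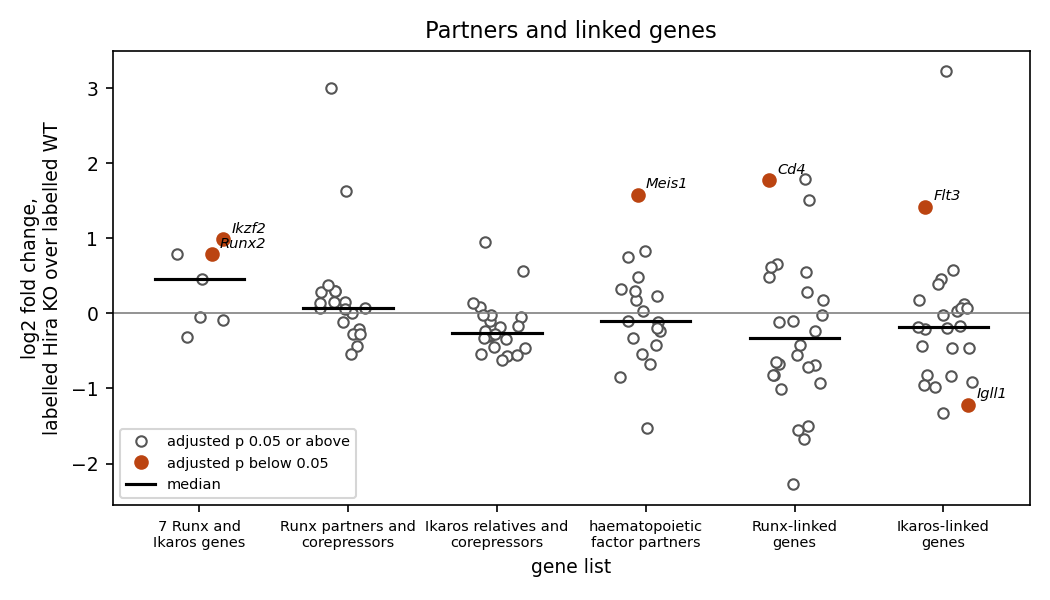
Log2 fold change, labelled Hira KO over labelled WT, of the 7 genes and of the tested genes of the 5 lists (2 genes not drawn), with the median of each whole list (line) and genes past edgeR's threshold filled and named. Called genes stand at 0.79 and 0.99 among the 7 and from -1.21 to 1.77 among those drawn in the lists, and the medians of the lists lie between -0.33 and 0.07.

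Markers of the cell types a sorted LSK sample can hold differed in summed level between the labelled groups for several types, and in bulk samples fewer cells of a type and less RNA per cell cannot be told apart. The 8 LSK markers all had a log2 fold change above 0, against 50.9% of all tested genes, though Kit (0.07) and Slamf1 (0.05) hardly moved. Of the 8, 3 were called higher (Ly6a, Flt3 and Hlf), against 1.32% of all tested genes, of which 0.480% were called lower. The summed level of the 8 was 254 and 233 TPM in labelled WT against 445 and 456 in labelled Hira KO. Granulocyte and monocyte markers summed to 4736 and 2388 TPM against 2223 and 1076 (6 of 7 below 0, with Ly6c2 called lower). Erythroid markers summed to 538 and 557 TPM against 378 and 61.5, mostly through Car1 (463 and 502 against 348 and 40.2). Of the 6 erythroid markers, 2 lay above 0, Hba-a1 (0.12) and Hbb-bs (1.57), and none was called. Lymphoid markers, relevant to the Ikaros genes, summed to 74.2 and 51.0 TPM against 43.8 and 24.2, with 7 of 8 below 0. Mast cell and basophil markers summed to 91.3 and 55.3 TPM against 39.6 and 30.1 (4 of 4 below 0), and megakaryocyte markers overlapped, at 73.2 and 18.9 against 54.4 and 23.1. Plasma cell markers summed to 67.0 and 33.8 against 244 and 144, mostly through Jchain. All 4 lay above 0, and Jchain was called higher (log2 fold change 3.97, edgeR adjusted p = 0.0204). For plasmacytoid dendritic cells, which express Runx2, 10 markers were listed (a list added after the values were seen). Of the 8 tested, 2 lay above 0, Tcf4 (0.52) and Pacsin1 (0.45). The sums overlapped, at 167 and 122 TPM against 144 and 92.1. Klk1 and Cd209d, both untested and at 0.96 TPM or less in labelled WT, were listed at 0 in both labelled Hira KO libraries. Stromal and endothelial markers overlapped, at 43.1 and 27.4 TPM against 31.5 and 23.1, mostly through Pecam1 (36.0 and 21.1 against 30.8 and 21.2, log2 fold change 0.32). Of the 4 tested, Pecam1 alone lay above 0. Cxcl12 stood at 4.12 and 4.42 TPM against 0.37 and 1.24, without passing (log2 fold change -2.22, edgeR adjusted p = 0.131). Cdh5, at 2.52 TPM or less in every library, was called lower, and the bone collagen gene Col1a1 reached 0.25 TPM or less. The part of these markers in the differences of Runx2 and Ikzf2 was not tested.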

How the data were processed

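The members and lists were chosen with earlier results of these data known. Per the labels' protocols, RNA libraries came from NuGEN amplification and Nextera XT. Strand is not stated, so a gene and its antisense partner cannot be told apart. STAR 2.5.3a, RSEM 1.3.0, MACS2 2.1.1, Bowtie2 2.2.9, Trim Galore 0.4.5 and GRCm38 stand in the submitters' processing notes, without roles. The authors deposited RSEM expected counts, TPM and gene lengths per library, per the file headers. Each deposited peak list covers 1 library, with a fold enrichment (a ratio), a -log10 p-value and a -log10 q-value per peak from the authors' caller. Treatment of the transposase offset: not given in the sources used here.

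Gene IDs had a symbol for 45143 of 45706. The main test, on rounded expected counts, was that of edgeR 4.0.16 (R 4.3.3; TMM, filterByExpr, robust quasi-likelihood fit, genotype as the only term; biological coefficient of variation 27.8%). DESeq2 1.42.0 and limma 3.58.1 were alternatives. SEs and 95% intervals came from the quasi-likelihood F statistic. The script was tested on simulated data. Libraries of 1 group differed by more than sampling noise (mean chi-square per gene 54.6 in labelled WT and 74.8 in labelled Hira KO). That mean was scaled by total counts only and included mitochondrial genes, Xist and AY036118, so it need not describe the typical gene. Peaks sharing an interval were counted as 1, mitochondrial ones were left out, and peaks overlapping by at least 1 bp were joined. Gene positions and promoter windows were RefSeq's for GRCm38.p6, matched by symbol. Named were all 7 members, of each list the 4 genes of lowest p, and the regions of 1 labelled pair, of promoters and of highest percentile. No gene was named for a like pattern, since 4 libraries are too few for a correlation. Single results of 2 list genes are not reported here, though counts and medians include them.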

Additional observations from a re-analysis of the deposited data

How the results depend on the processing

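Over the whole table edgeR called 214 genes higher and 78 lower. DESeq2 called 918 and 570, edgeR with no low-count filter 1206 and 1017, and with the stricter filter (at least 1 CPM in all 4 libraries) 374 and 152. Limma called 392 and 262 on log2(TPM + 1) and 376 and 246 on log2(TPM + 0.1), and, in an alternative added after the data were seen, 39 and 4 once mitochondrial genes were left out. With 1 library left out the counts ran from 1 to 1657 higher and from 1 to 1888 lower. The lone library of a group was then assumed to vary like the other group. The cause of these shifts was not tested. Members called higher numbered 2, and 0 by limma on all 3 TPM scales. With 1 library left out they ran from 0 to 3. The sign of each member held under all 12 alternatives except for Cbfb, which ran from -0.34 to 0.18 with 1 library left out (0.0017 when labelled WT replicate 1 was the one, 0.18 when it was labelled Hira KO replicate 2).

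The replicate numbers were not taken to pair the libraries (correlation of deviations from the group means 0.06 over 16258 genes, 2 pairs). With the replicate number as a block edgeR called 368 genes higher and 169 lower, and Runx2 and Ikzf2 stayed called among the 7 (adjusted p 0.0433 and 0.0246). The number of regions near the members, 186, ran from 151 (-log10 q of at least 5) to 245 (within 50 kb). The peak lists carry no depth.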
